A study of Homo sapiens with 7 samples.

Results

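CTCF peaks outside protein-coding genes that overlapped no G-quadruplex (G4) motif made up 28.6% of the peaks of untreated K562 cells and 29.7% of those of cells treated with the G4 ligand pyridostatin (PDS). These intergenic G4-free peaks were defined by position and sequence alone, as peaks on chromosomes 1 to 22 and X whose centre lay outside every protein-coding gene, more than 1 kb and at most 100 kb from the nearest one, and which overlapped no G4 motif. Such a motif was taken as 4 G-runs, each at least 3 bases long, that loops of 1 to 7 nt connect, on the plus or the minus strand. The rule was met by 9460 of 33094 peaks in the control list (28.6%, Wilson 95% confidence interval 28.1 to 29.1%) and by 9785 of 32917 peaks in the PDS list (29.7%, 29.2 to 30.2%), or 19245 of 66011 peaks in all. The rule did not keep every G4 motif or gene away, since 28.2% of these control and 30.1% of these PDS peaks had a motif within 1 kb (27.8% and 29.6% of all peaks had one there but not in the peak), and 22.1% and 21.4% of centres lay in a lncRNA gene (15.9% and 15.8% of all peaks).

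K562 is an established human line of chronic myelogenous leukaemia with erythroid features, and a single line was studied. CTCF was immunoprecipitated from untreated cells (2 CTCF samples and 1 IgG sample) and from cells kept with 10 μM PDS for 24 h (2 CTCF and 2 IgG samples), and the DNA was sequenced (ChIP-seq). The authors called the peaks of each condition from its replicates together, with IgG as the background, so that each condition gave 1 list of positions with a fold enrichment over IgG and a p-value per peak. The methods describe the replicates as biological. Neither list holds read counts or values per replicate. The depth is therefore unknown, no test between conditions is possible, and every interval below covers counting error only, with peaks that are not replicates. Each fold is relative to the IgG of its own condition, and it was used here as a percentile within its list (the share of peaks of that list at or below it). Where folds of both lists are printed or correlated, their levels are not compared.

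CTCF is a zinc-finger protein that binds DNA at a long and variable sequence. Bound CTCF halts cohesin as it extrudes chromatin loops, which makes CTCF sites anchors of loops and borders of domains, and the direction of the sequence matters for that role. Many of its sites lie between genes, where CTCF acts at insulators, which keep enhancers from acting on the wrong promoter. G4s are structures of stacked guanines that form in G-rich single strands, and PDS binds and stabilizes them.

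The sequences below show what the CTCF site looks like in these peaks. The motif searched was the 15-base consensus derived from ChIP with exonuclease digestion, on both strands of the 200 bp at the peak centre. Its matches took 643 distinct forms at 1533 sites, of which 347 forms occurred once and 20 forms at 10 or more sites. The 3 most frequent forms are shown first, with the letters that the consensus restricts in capitals. The first occurred at 25 sites (23 in shared peaks), the next at 19 sites (19 in shared peaks) and the last at 17 sites (16 in shared peaks).
Form at 25 sites: cCAgcAGAgGGCAGC
Form at 19 sites: cCAccAGGtGGCGCC
Form at 17 sites: cCAgcAGAgGGCAGT
The second of these holds a CG, the dinucleotide that carries DNA methylation, as did 39.3% of the sites. The next lines give the site with 20 bases to either side in 7 of the peaks described further on, 5′ to 3′ on the strand of the consensus (hg19), named by the nearest protein-coding gene and with the 15 bases of the site in capitals. They come from the highest, the one-list and the most displaced peaks by fold, and 6 of them were picked because their site matches the consensus exactly, so that they do not show how often it does. The SERBP1 site, of the highest shared peak, departs from the consensus at 1 position. Among the peaks of the same kinds named further on but not printed, those near FLYWCH2, METTL9, ADGRF5, SPECC1, DNAJA2, PDC and BEST3 had their best site at 1 mismatch, and that near SEPTIN5 had none with at most 1 mismatch.
APOL3, shared, chr22:36520191-36520245, minus strand: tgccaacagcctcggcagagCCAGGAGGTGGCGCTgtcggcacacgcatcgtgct
SERBP1, shared, chr1:67966284-67966338, minus strand: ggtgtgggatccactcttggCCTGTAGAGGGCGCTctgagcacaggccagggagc
KCNQ5, control-only, chr6:73290230-73290284, minus strand: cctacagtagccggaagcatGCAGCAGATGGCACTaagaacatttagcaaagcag
XNDC1N-ZNF705EP-ALG1L9P, control-only, chr11:71511543-71511597, plus strand: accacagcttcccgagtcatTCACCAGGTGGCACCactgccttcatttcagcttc
BMS1, PDS-only, chr10:43362266-43362320, plus strand: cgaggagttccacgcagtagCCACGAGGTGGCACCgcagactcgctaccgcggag
CDC42EP5, PDS-only, chr19:54990001-54990055, plus strand: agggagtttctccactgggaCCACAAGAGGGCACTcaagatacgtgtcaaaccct
AC010760.1, shared, chr15:22511223-22511277, plus strand: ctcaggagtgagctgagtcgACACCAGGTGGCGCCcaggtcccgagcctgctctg
The CDC42EP5 site lay within 100 bp of the centre of its 100 bp wide peak but outside the peak itself. A match describes the sequence and not a bound site.

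The consensus was found in the central 200 bp of 1387 intergenic G4-free peaks of the control list (14.7%, 13.96 to 15.4%) and of 974 peaks of the PDS list (9.95%, 9.38 to 10.6%). Among all peaks of the lists it was found in 13.5% and 9.76%. Windows of the same length placed 1 kb to either side of the centres of intergenic G4-free peaks held it in 0.386% (control) and 0.562% (PDS) of cases. With at most 1 mismatch, the shares were 44.8% of control and 33.3% of PDS peaks, against 43.2% and 33.9% of all peaks and 4.82% and 5.76% of the windows 1 kb away. Over the whole peak, 18.9% of control and 14.7% of PDS peaks held the consensus, against 17.3% and 14.4% of all peaks. The core motif CCGCGNGGNGGCAG was rare, with matches in 4 control and 5 PDS peaks (0.0423% and 0.0511%), against 0.0423% and 0.0578% of all peaks.

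Most intergenic G4-free peaks occurred in both lists. In the control list 7382 of 9460 (78.0%, 77.2 to 78.9%) overlapped a PDS peak by at least 1 bp, as did 78.0% of all control peaks. In the PDS list 7294 of 9785 (74.5%, 73.7 to 75.4%) overlapped a control peak, against 78.6% of all PDS peaks. That left 2078 control-only peaks (22.0%, the same as the 22.0% of the whole list) and 2491 PDS-only peaks (25.5%, against 21.4% of the whole list). The order of the lists depended on what counted as shared. Where a gap of up to 1 kb was allowed, 84.3% of control and 91.4% of PDS peaks had a partner. In the stronger 50% of each list by p-value, 94.9% of control and 99.3% of PDS intergenic G4-free peaks overlapped a peak of the other list, and 79.9% and 83.7% overlapped a peak that was itself in the stronger 50% of that list. Of the 7533 overlaps that involved an intergenic G4-free control peak, 7245 were with a PDS peak of the same kind and 249 with an intergenic PDS peak that reached a G4 motif.

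Intergenic peaks that did overlap a G4 motif were shared more often. The shared share was 95.2% of 1389 such peaks in the control list and 92.9% of 1558 in the PDS list, so that G4-free peaks differed from them by −17.2 points (95% Newcombe interval −18.5 to −15.7) in control and by −18.3 points (−19.8 to −16.7) in PDS. The size depended on the setting, at −12.2 (control) and −5.47 points (PDS) where a gap of 1 kb was allowed, at −12.5 and −11.2 where centres had to be at most 100 bp apart, and at −4.41 and −0.59 points in the stronger 50% of each list by p-value. Where the partner had to be in the stronger 50% too, the difference was −17.2 points (−18.7 to −15.6) in control, as large as with all peaks, and −8.33 points in PDS. The peaks with a motif were also wider, with a median of 600 bp in both lists against 360 bp (control) and 300 bp (PDS), and ranked higher by p-value, at a median percentile of 76.7 and 80.6 against 49.5 and 44.9. The part of width and rank in this difference was not tested.

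Against other peaks without a G4 motif, the picture differed between the lists. In the control list, the shared share of intergenic G4-free peaks exceeded that of intronic peaks without a motif (71.9% of 11594) by 6.09 points (4.92 to 7.26), and that of peaks in gene deserts more than 100 kb from a protein-coding gene (68.6% of 1735) by 9.39 points (7.09 to 11.8). In the PDS list the differences were −0.67 points (−1.86 to 0.51) from intronic peaks and −0.92 points (−3.17 to 1.43) from desert peaks, and both intervals include 0. The sign of these PDS differences depended on the setting. In the stronger 50% by p-value they were −0.11 (−0.45 to 0.23) and 0.22 points (−0.36 to 1.41). Where the partner had to be in the stronger 50% as well, they were 3.30 (1.70 to 4.90) and 11.6 points (7.84 to 15.6), and where a gap of 1 kb was allowed 1.47 (0.68 to 2.26) and 5.22 points (3.50 to 7.10). Where centres had to be at most 100 bp apart they were −2.52 (−3.88 to −1.17) and −5.88 points (−8.47 to −3.25), and the control difference from desert peaks, at 2.47 points (−0.06 to 5.02), then included 0. In control, intergenic G4-free peaks had a median width of 360 bp, against 300 bp (intronic) and 240 bp (desert). Their median p-value percentile was 49.5, against 43.6 and 35.9. In PDS the widths were 300, 250 and 200 bp and the percentiles 44.9, 42.2 and 39.1. The part of width and rank in the shared shares was not tested. In the central 200 bp, the consensus was less frequent than in desert peaks, by −5.17 points (−7.23 to −3.22) in control and −6.00 points (−7.98 to −4.16) in PDS, but over the whole peak these differences were −1.93 (−4.05 to 0.08) and −1.57 points (−3.60 to 0.32), with intervals that include 0. From intronic peaks the differences in the central 200 bp were 0.54 points (−0.41 to 1.499) in control and 0.31 points (−0.50 to 1.12) in PDS, and over the whole peak 1.44 (0.39 to 2.49) and 1.07 points (0.12 to 2.02), which exclude 0. Over the whole peak, more sequence was searched in the wider classes. The part of width in these consensus differences was not tested.

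Distance to the nearest gene went with sharing in the control list. There the shared share fell from 81.7% (79.9 to 83.3%) of 1984 peaks at 1 to 5 kb to 74.8% (72.5 to 76.9%) of 1478 peaks at 50 to 100 kb. In the PDS list it was 72.1% (70.2 to 73.9%) of 2189 peaks at 1 to 5 kb and 75.0% (72.7 to 77.1%) of 1467 peaks at 50 to 100 kb, so that the intervals of the lists were apart near genes and overlapped far from them. The GC content of the surroundings (500 to 2000 bp from the centre) fell over the same distances, from a median of 47.7% to 43.6% in control and from 48.6% to 44.3% in PDS. Around the limits of the rule, control peaks were shared in 82.3% of 402 cases at 0.5 to 1 kb and 84.0% of 324 cases at 1 to 1.5 kb, and in 65.7% of 207 cases at 90 to 100 kb and 72.8% of 151 cases at 100 to 110 kb. In the PDS list the corresponding values were 73.5%, 73.3%, 75.6% and 73.6%.

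**Figure D1:**
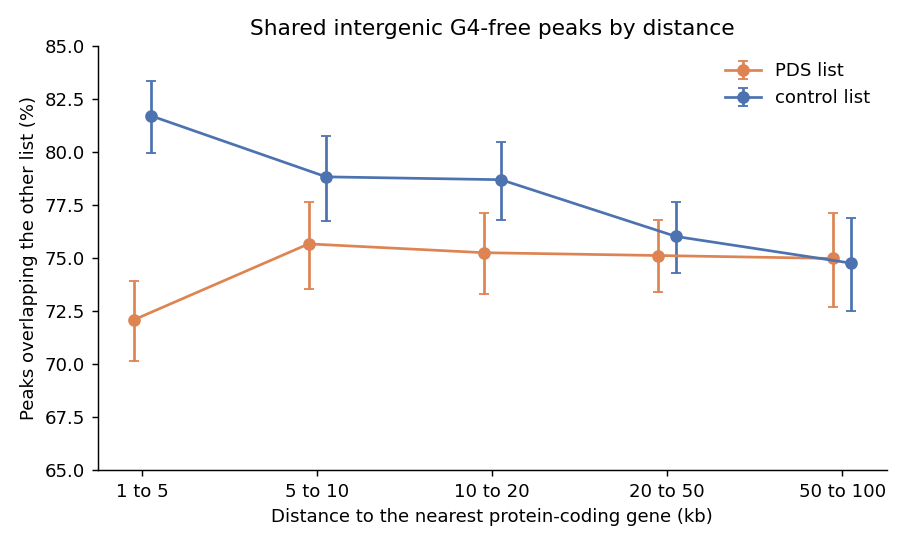
Share of intergenic G4-free peaks that overlap a peak of the other list (%, vertical axis from 65%) against distance to the nearest protein-coding gene (kb), for the control and the PDS list, with Wilson 95% intervals. The control share falls from 81.7% to 74.8% while the PDS share lies between 72.1% and 75.7%.

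Peaks of 1 list differed from shared peaks in sequence, and differently in each list. The consensus was present in 15.9% of shared and 10.3% of control-only peaks of the control list, a difference of 5.59 points (3.99 to 7.09). In the PDS list it was present in 12.7% of shared and 2.01% of PDS-only peaks (50 of 2491), a difference of 10.7 points (9.69 to 11.6). The sizes depended on the setting, at 3.29 (control) and 4.79 points (PDS) where a gap of 1 kb counted as shared, and at 12.2 and 27.2 points with 1 mismatch and 9.89 and 18.2 points over the whole peak. PDS-only peaks thus held it less often than control-only peaks, with a difference of −8.29 points (−9.75 to −6.91). The direction was the same for one-list peaks of the whole lists, of which 10.3% (control-only) and 2.38% (PDS-only) held the consensus, and the difference was −7.73 points (−8.68 to −6.78) among peaks outside the class. Shared peaks of the whole lists held the consensus in 14.3% (control) and 11.8% (PDS) of cases, so that they exceeded one-list peaks there too. Among one-list intergenic peaks with a G4 motif, 4.55% of 66 control-only and 3.60% of 111 PDS-only peaks held it, a difference of −0.94 points whose interval (−9.23 to 5.14) includes 0. A difference of the same direction was found with 1 mismatch allowed, where 13.0% of the PDS-only and 35.3% of the control-only peaks had a match, against 14.9% and 35.6% of all one-list peaks.

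A large part of the PDS-only peaks stood beside shared ones. Of the 2491 PDS-only peaks, 1403 (56.3%) had a shared peak of their own list within 1 kb, against 337 of 2078 control-only peaks (16.2%), a difference of 40.1 points (37.5 to 42.6). Over all one-list peaks of the lists these shares were 50.8% and 13.6%, and among those outside the class the difference was 35.2 points (33.5 to 36.9), so that the rest of the lists differed in the same direction. The consensus was found in 2 of these 1403 PDS-only peaks (0.143%, 0.0391 to 0.518%) and in 4 of the 337 control-only peaks (1.19%, 0.463 to 3.01%), and the windows 1 kb from the centres of all intergenic G4-free peaks held it in 0.562% and 0.386%. Away from shared peaks it was found in 48 of 1088 PDS-only peaks (4.41%, 3.34 to 5.80%) and in 210 of 1741 control-only peaks (12.1%, 10.6 to 13.7%), so that the lists differed there too.

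**Figure D2:**
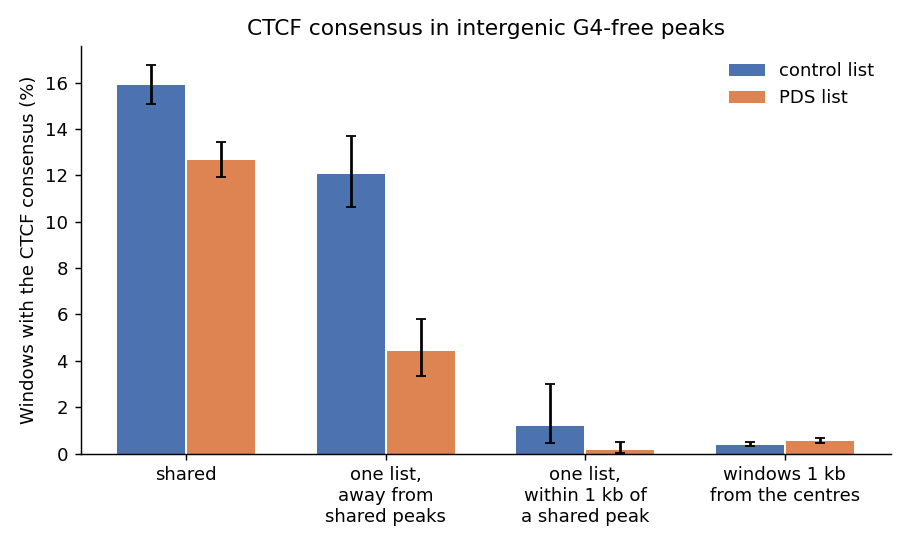
Share of 200 bp windows with the CTCF consensus (%) in shared peaks, in peaks of 1 list that lie away from or within 1 kb of a shared peak, and in windows 1 kb from the centres, for both lists, with Wilson 95% intervals. The share falls from 15.9% to 1.19% in the control list and from 12.7% to 0.143% in the PDS list, against 0.386% and 0.562% in the windows away from the centres.

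One-list peaks were also narrow and weak. The median width was 180 bp for control-only and 100 bp for PDS-only peaks, against 420 and 400 bp for shared peaks, and 40.8% of the former and 62.7% of the latter had the narrowest width of their list (120 and 100 bp), as did 39.9% and 60.3% of all control-only and PDS-only peaks. Widths step by 60 bp in control and 50 bp in PDS, so that they cannot be compared between the lists. No more than 11.4% of control-only and 1.16% of PDS-only peaks belonged to the stronger 50% of their list by p-value, against 11.5% and 1.10% of all one-list peaks. The part of width and p-value in the consensus shares was not tested.

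Base composition also differed between the one-list peaks of the lists. The median GC content of the central 200 bp was 51% in shared peaks of either list and 50.5% (interval of the median 50.5 to 51%) in PDS-only peaks, but 41.2% (40.5 to 41.5%) in control-only peaks, against 51.5% and 41.5% of all PDS-only and control-only peaks. One-list intergenic peaks with a G4 motif had overlapping intervals, at 57.0% (54.5 to 59.5%, PDS-only) and 56.2% (53.5 to 62.0%, control-only). In the surroundings the medians were 45.9% and 45.7% for shared peaks, 47.1% for PDS-only and 42.3% for control-only peaks. Averaged over all peaks, GC content within 50 bp of the centre of shared peaks stood 6.37 points (control) and 6.59 points (PDS) above that at 1.5 to 2 kb. In PDS-only peaks the same difference was 5.91 points and in control-only peaks 0.865 points, with a dip to 39.8% in the bin that ends 100 bp before the centre. G4 motifs within 1 kb, though not in the peak, were found beside 31.6% of the PDS-only and 20.8% of the control-only peaks (a difference of 10.8 points, 8.22 to 13.3), against 34.3% and 21.8% of all one-list peaks, and beside 30.3% and 29.6% of shared peaks in control and PDS.

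**Figure D3:**
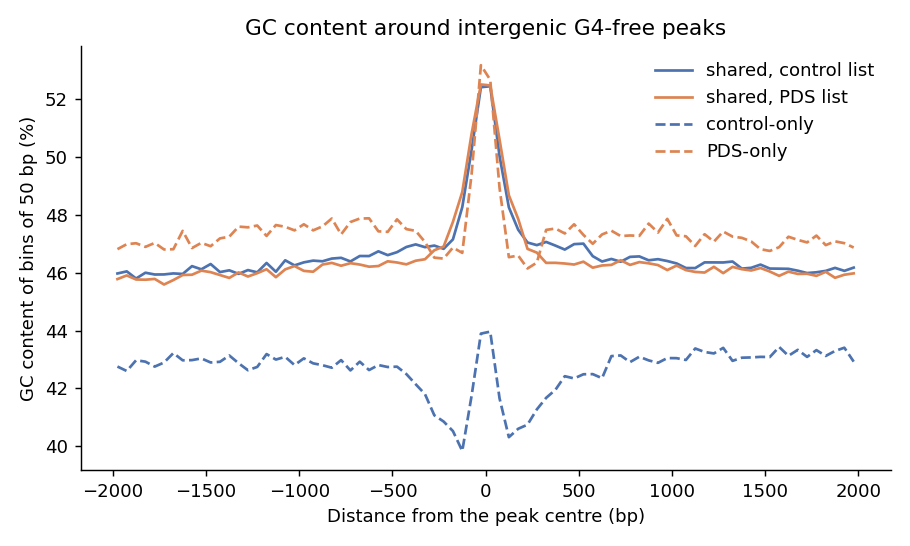
Mean GC content (%) in bins of 50 bp from 2000 bp before to 2000 bp after the centre of intergenic G4-free peaks, for shared peaks of each list (solid lines) and for control-only and PDS-only peaks (dashed lines). PDS-only peaks have a central maximum of 53.2%, close to that of shared peaks, whereas control-only peaks reach 44.0% and dip to 39.8% beside the centre.

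The direction of the site was recorded where the consensus was present. The peak centre lay on the 3′ side of the consensus in 65.1% (62.5 to 67.5%) of control and 60.0% (56.9 to 63.1%) of PDS intergenic G4-free peaks, against 59.7% (57.9 to 61.4%) and 59.2% (57.1 to 61.2%) of all other peaks. In control-only peaks the share was 75.6% (69.4 to 80.9%) of 213, and in shared control peaks 63.2% (60.4 to 65.9%). The corresponding shares of the PDS list were 74.0% (60.4 to 84.1%) of 50 and 59.3% (56.1 to 62.4%). The median distance from centre to site was 36 bp in control and 46 bp in PDS, against 33 and 40 bp in all other peaks. Only the central 200 bp was searched, so that the window itself bounds this distance. The site lay within 50 bp of the centre in 61.1% of control and 53.3% of PDS cases, against 63.5% and 56.3% in all other peaks. The consensus pointed away from the nearest protein-coding gene in 55.0% (52.4 to 57.6%) of control and 56.0% (52.8 to 59.0%) of PDS cases. Neither this share nor the split into shared and one-list peaks was computed for other peaks. Nothing particular to intergenic G4-free peaks is therefore read from them.

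**Figure D4:**
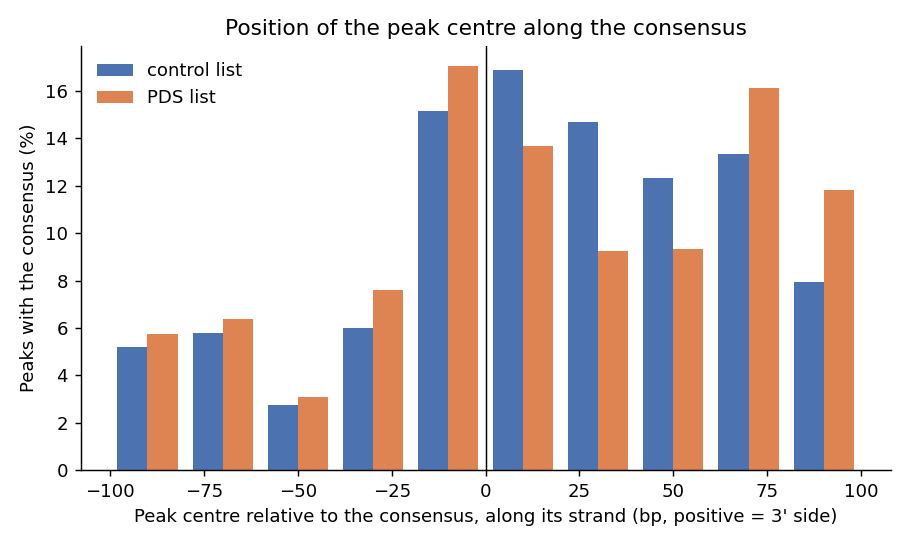
Position of the peak centre along the strand of the consensus (bp, bins of 20 bp, positive on the 3′ side), as a share of the 1387 control and 974 PDS intergenic G4-free peaks with the consensus (%). Both lists have more centres on the 3′ side, 65.1% and 60.0%. Both rise again at 60 to 80 bp, to 13.3% from 12.3% in the bin before (control, 185 and 171 peaks) and to 16.1% from 9.34% (PDS). On the 5′ side the bin at −80 to −60 bp also exceeds the next one towards the centre. The shares there are 5.77% against 2.74% (control) and 6.37% against 3.08% (PDS).

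To follow the same places through both lists, peaks were taken that overlapped exactly 1 peak of the other list, which itself overlapped no other. This gave 6793 pairs of intergenic G4-free peaks, with a median of 45 bp between centres. Fold enrichment in the lists was correlated across the pairs with a Spearman rho of 0.43 and a Pearson r of 0.46 on log2 folds, and p-values with a rho of 0.76 (n = 6793 for each, pairs share the 2 lists and are not independent). Over the one-to-one pairs of all classes these values were 0.42, 0.44 and 0.80 (n = 24633). By fold, 371 pairs (5.46%) were in the top 10% of both lists, 761 (11.2%) in that of the control list and 1018 (15.0%) in that of the PDS list, against 5.05%, 12.9% and 12.8% of the pairs of all classes. The fold percentile rose by more than 10 points from control to PDS in 2794 pairs (41.1%), fell by more than 10 points in 1924 (28.3%) and stayed within 10 points in 2075 (30.5%), where the shares over all classes were 36.3%, 33.6% and 30.05%.

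Ranks depend on the other peaks of each list, so that a shift can be read only beside that of the other pairs. The median change in fold percentile was 3.95 points (3.23 to 4.69), and that in p-value percentile 0.80 points (0.43 to 1.27). Over the 24633 one-to-one pairs of all classes the medians were 0.69 points (0.36 to 1.05) by fold and 2.30 points (2.06 to 2.54) by p-value. With folds ranked among these pairs alone, intergenic G4-free pairs rose by 3.74 points (2.93 to 4.36). Pairs of intergenic peaks with a G4 motif went the opposite way by fold, at −2.70 points (−4.20 to −0.86, n = 1156), while intronic pairs without a motif rose by 4.69 points (4.05 to 5.45, n = 7582) and desert pairs by 5.87 points (4.43 to 8.15, n = 1146). By p-value, the pairs with a G4 motif rose by 3.04 points (2.28 to 4.001), intronic pairs by 1.32 and desert pairs by 2.09, so that the class that fell by fold had the largest rise of these 4 classes by p-value. Fold and p-value disagreed on the direction in 61.2% of the 6793 pairs and in 62.2% of the pairs of all classes.

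GC content and nearby G4 motifs went with these shifts. Pairs were split into 5 bins by the GC content of the central 200 bp. In the bin with the lowest (up to 45.0%, n = 1423), the fold percentile rose by 7.50 points (5.67 to 9.70) while the p-value percentile fell by 8.00 points. In the bin with the highest (58.0% and over, n = 1352), the fold percentile fell by 1.96 points (interval of the change −3.43 to −0.70) and the p-value percentile rose by 5.78 points. Pairs with a G4 motif within 1 kb of both peaks shifted by 0.64 points (−0.28 to 1.85, n = 1873), and pairs with none near either peak by 5.49 points (4.54 to 6.51, n = 4787). By p-value the order was the opposite, at 3.11 points (2.10 to 3.89) and 0.12 points (−0.51 to 0.59). Where both whole peaks held the consensus, in 1294 pairs, the shift was 5.22 points (3.53 to 7.50), and where neither did it was 3.46 points (2.69 to 4.32), while by p-value the shifts were −0.28 points (−1.08 to 0.43) and 1.30 points (0.74 to 1.89). The pairs of other classes were not split in these ways, so that nothing particular to intergenic G4-free pairs is read from the splits. The part of IgG signal and of GC content in these shifts was not tested.

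**Figure D5:**
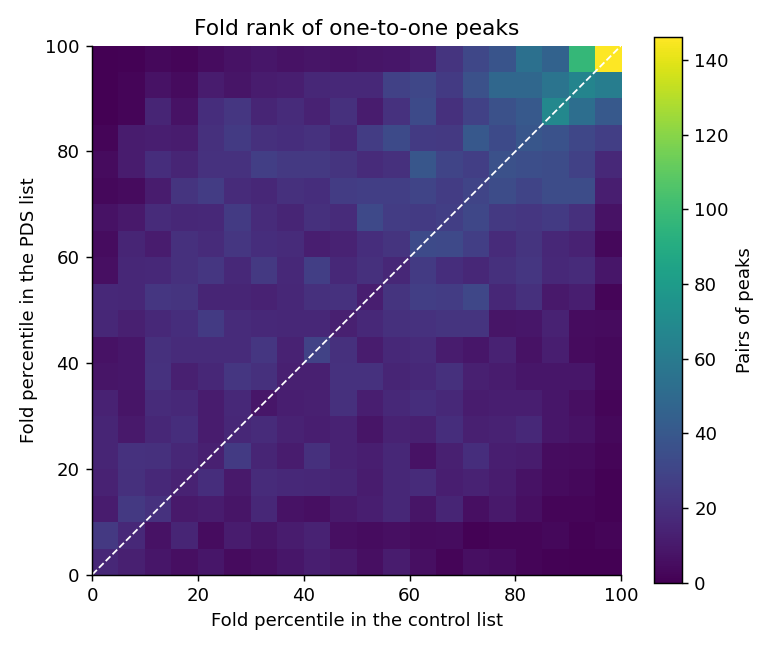
Number of one-to-one pairs of intergenic G4-free peaks (colour) by fold percentile in the control list (horizontal axis) and in the PDS list (vertical axis), in bins of 5 points, with the line of equal percentiles dashed. Pairs are most crowded in the top right corner, where 146 pairs are above the percentile of 95 in both lists, and are spread widely elsewhere (rho of 0.43).

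Peaks that held the consensus ranked higher. Among the pairs, control peaks with the consensus anywhere in the peak had a median fold percentile of 64.3 (62.2 to 66.6, n = 1413) against 55.2 (54.0 to 56.6) without it, and PDS peaks 74.9 (72.8 to 76.4, n = 1326) against 60.3 (59.0 to 61.4). The consensus was present in both peaks of 1294 pairs, in the control peak alone of 119 and in the PDS peak alone of 32. A wider peak offers more sequence for a match, and the part of width in these ranks was not tested. Pairs of other classes were not split by the consensus, so that nothing particular to intergenic G4-free peaks is read from it.

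The 4 strongest shared peaks by fold were taken from the mean percentile of both lists. The peak with the highest mean percentile (chr1:67966081-67966440 in the control list) was 70.2 kb upstream of SERBP1, which encodes an mRNA-binding protein, with a fold of 196.5 in control and 77.99 in PDS, ranks 7 and 27 of the lists. A peak 16.1 kb downstream of APOL3, of the apolipoprotein L family (chr22:36520021-36520440), had folds of 136.3 and 81.59 and held the consensus. Peaks 8.18 kb upstream of FLYWCH2 (chr16:2924881-2925180) and 42.3 kb upstream of METTL9, a protein histidine methyltransferase (chr16:21566101-21566460), had folds of 171.6 and 172.1 in control and of 66.24 and 61.68 in PDS. All 4 were above the percentile of 99 in both lists.

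The one-list peaks described next were chosen by their folds, so that a lower rank by p-value was to be foreseen from the choice. Among control-only peaks, the highest fold was 107.2 (chr11:71511541-71511660, 4.44 kb downstream of XNDC1N-ZNF705EP-ALG1L9P), at the percentile of 99.4 by fold and 17.4 by p-value. It was followed by folds of 95.71 beside ADGRF5, an adhesion receptor (chr6:46816741-46816920), and 93.47 upstream of KCNQ5, a voltage-gated potassium channel (chr6:73290121-73290360), with p-value percentiles of 12.2 for ADGRF5 and 64.9 for KCNQ5. The PDS-only peaks with the highest folds lay 31.9 kb downstream of BMS1, a GTPase of ribosome assembly (chr10:43362251-43362350, fold 58.51), 1.94 kb downstream of SPECC1 (chr17:20224201-20224350, 58.50) and 5.66 kb upstream of CDC42EP5, an effector of the GTPase CDC42 (chr19:54990051-54990150, 53.77). Their p-value percentiles were between 15.7 and 28.0.

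The largest changes of rank were chosen by the values they are described with. The pairs near PDC, which encodes the retinal protein phosducin, and BEST3, of the bestrophin chloride channels, moved from 11.5 to 98.4 and from 7.2 to 93.3. By p-value both pairs fell, from 97.6 to 59.8 (PDC) and from 70.3 to 16.7 (BEST3). The largest falls were found near AC010760.1 (96.2 to 5.4, folds 69.11 and 7.606), near DNAJA2, an HSP70 co-chaperone (94.2 to 7.0), and near SEPTIN5, a septin (97.7 to 11.4). By p-value, the peaks near AC010760.1 and SEPTIN5 moved up, from 54.3 to 68.3 and from 77.2 to 86.5, while that near DNAJA2 moved down with its fold, from 47.0 to 35.

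Some of these peaks had genes of the erythroid programme, of chromatin architecture or of imprinting as the nearest one. For comparison, 28.4% of all 20098 protein-coding genes on these chromosomes in control and 26.8% in PDS were the nearest gene of at least 1 such peak, and nothing particular to a list is read from its counts. Of 15 transcription factors of erythroid and other blood cells, 7 in control and 5 in PDS were the nearest gene of an intergenic G4-free peak. These genes had 13 peaks in each list, of which 9 were shared in each. Upstream of BCL11A, the repressor of fetal globin genes, the peak chr2:60808741-60809520 stood at the percentile of 92.6 in control (fold 57.68) and its PDS counterpart at 39.9 (15.14), while the percentile by p-value went from 81.8 to 92.6. Another shared BCL11A peak (chr2:60787741-60788280) went up by both, from 33.7 to 59.8 by fold and from 25.6 to 52.8 by p-value. A peak 36.0 kb upstream of MYB, a regulator of haematopoietic progenitors (chr6:135466141-135466680), was control-only, at the percentile of 88.2. A PDS-only peak 100 bp wide (chr6:135465901-135466000, 36.5 kb upstream) lay beside it without overlap, at the percentile of 5.1. The shared MYB peak (chr6:135483181-135484380 in control) went up, from 39.9 to 67.9 by fold and from 66.1 to 82.4 by p-value. Near LMO2, a partner of TAL1 in erythroid complexes, a control-only peak stood at 70.3 and a PDS-only peak at 64.7, without overlap. Downstream of IKZF1, a lymphoid zinc-finger factor, the shared peak (chr7:50485501-50486340 in control) was at 67.8 in control and 92.5 in PDS. Other shared peaks fell by fold, near GFI1B (43.4 to 3.2), BCL11A (chr2:60666781-60666960, 41.4 to 8.4) and LMO2 (chr11:33851041-33851460, 66.1 to 46.3). By p-value the GFI1B peak also fell, from 10.4 to 3.9, while these BCL11A and LMO2 peaks rose, from 9.0 to 25.5 and from 45.1 to 55.0. The last shared peaks of BCL11A and LMO2 went from 33.1 to 37.8 and from 54.8 to 53.4 by fold. None of the 10 globin genes was the nearest gene of an intergenic G4-free peak in either list.

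Of 16 genes of CTCF, cohesin and their regulators found in the annotation, 7 in control and 4 in PDS were nearest to such a peak, with 10 and 9 peaks, of which 7 were shared in each list. Beside SMC3, a core subunit of cohesin, the strongest control peak (chr10:112370041-112370460) was at the percentile of 89.5 in control and 34.3 in PDS, and the peak 20.4 kb upstream, with the consensus, at 77.9 and 87.6. By p-value the first went from 61.2 to 64.9 and the other from 47.1 to 5.4, opposite to the fold in both. A further shared SMC3 peak (chr10:112316821-112317120) was at 19.4 in control and 72.6 in PDS by fold, and at 10.2 and 7.6 by p-value. Peaks downstream of MAU2, part of the cohesin loader, and upstream of WAPL, the cohesin release factor, were higher in rank in PDS, at 66.4 and 92.7 for MAU2 and at 56.2 and 90.4 for WAPL. Among 20 imprinted genes, whose expression depends on the parental allele, 6 in each list had such peaks (8 peaks each, 6 shared in control and 5 in PDS). The highest in the control list lay 2.88 kb upstream of CDKN1C, an inhibitor of cyclin-dependent kinases (chr11:2909581-2910180, fold 106.2 in control, percentile 99.4). The PDS peak that overlapped it (chr11:2909201-2910150, fold 27.53) reached a G4 motif and so was not of this class, and stood at 87.3 by fold and 94.5 by p-value, against 87.4 by p-value in control. The highest of the PDS list was the shared peak upstream of DLK1 (74.9 in control, 81.4 in PDS), and that upstream of GNAS was at 49.5 and 64.2. By p-value both went down, from 65.6 to 64.2 (DLK1) and from 56.1 to 48.5 (GNAS). The shared peak near RTL1, a retrotransposon-derived gene, held the consensus and went from 2.8 to 57.0 by fold and from 51.4 to 45.9 by p-value.

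Red cell membrane and haem genes held 9 such peaks in control (6 shared) and 6 in PDS (6 shared), near 7 and 4 of 16 genes. The peak 4.97 kb upstream of EPB41, which encodes protein 4.1 of the membrane skeleton (chr1:29208301-29208960), was among the strongest of both lists, at the percentile of 99.9 in control (fold 162.6) and 99.5 in PDS (55.37). The peak 80.8 kb downstream of GYPC, which encodes glycophorin C (chr2:127534741-127535400), reached 98.6 and 99.5. A second shared GYPC peak stood at 78.9 in control and 37.4 in PDS, and the peak upstream of the transferrin receptor gene TFRC at 78.1 and 12. Both rose by p-value, from 58 to 77.4 and from 32.8 to 52. The median fold percentile of the peaks of a gene list was 54.8 in control and 46.3 in PDS for the factors of erythroid and other blood cells, 55.4 and 64.1 for CTCF and cohesin genes, 27.0 and 55.9 for imprinted genes and 70.6 and 58.9 for red cell genes, where that of all peaks is 50.0 by construction. With 1 list per condition, none of these changes of rank could be set against a spread between replicates.

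The peaks had 5701 distinct nearest genes in control and 5380 in PDS, 4941 of them in both. In control 75.6% and in PDS 76.2% of centres lay in no annotated gene of any kind. These shares were 33.4% and 34.6% for all peaks and 77.0% and 76.3% for intergenic peaks with a G4 motif. Upstream positions were slightly more frequent than downstream ones, at 53.6% (52.6 to 54.6%) and 52.9% (51.9 to 53.9%). Intergenic peaks with a G4 motif were upstream in 51.6% (49.0 to 54.2%) and 51.5% (49.0 to 54.0%), with intervals that overlap these. Desert peaks without a motif were upstream in 49.7% (47.3 to 52.0%) and 48.5% (46.0 to 51.0%). The densest windows of 1 Mb were adjacent on chromosome 22. The window chr22:22000001-23000000, with TOP3B and PRAME among the nearest genes, held 74 control and 85 PDS peaks, of which 41 in each list were shared. Peaks of any class numbered 137 (control) and 154 (PDS) there. The next, chr22:23000001-24000000, with BCR, IGLL1, IGLL5 and RAB36, held 66 control and 87 PDS intergenic G4-free peaks, of which 48 and 42 were shared. Peaks of any class numbered 132 and 160 in it. The median window with any intergenic G4-free peak held 7 of them over both lists. K562 cells carry extra copies of the BCR-ABL1 fusion and its surroundings, and the part of copy number in these counts was not tested. Without these 2 windows the shared share was 78.3% in control and 75.0% in PDS.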

How the data were processed

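ChIP-seq of CTCF in K562 cells comprised 7 samples in 2 conditions. The authors mapped reads to hg19 with Bowtie2 2.2.3, removed duplicates and poorly mapped reads, and ran PePr on the replicates of each condition together, from which 2 peak lists were deposited. The deposited score column was not used. Fold enrichment (a ratio to IgG) and p-value per peak were computed by the authors and were used here for ranks within a list. The methods state a p-value cutoff of 0.05, whereas the largest p-value in either of the deposited lists was 1.00e-05, and positions were multiples of 60 bp (control) and 50 bp (PDS), which sets different steps of width, although a 100 bp window is stated. The sample labels and the methods differ on the read layout and the instrument. Depth is unknown.

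Centres were placed relative to protein-coding genes of GENCODE 44 lifted to GRCh37, and motifs were searched in the GRCh37 sequence. The 25 control and 24 PDS peaks on other sequences than chromosomes 1 to 22 and X could not be members. Peaks were shared where they overlapped by at least 1 bp (bedtools 2.31.1). Shares have Wilson, their differences Newcombe and medians order-statistic 95% intervals. Genes named are nearest to the 4 shared peaks highest by fold in both lists, the 3 highest peaks of each list alone, the 3 largest rises and falls in rank, the 2 densest windows and high-ranking peaks of 4 gene lists (globin genes had none), to which further peaks of the same lists were added after their values were seen. 1 of these rises is not reported here. Peaks of chromosome 8 were counted, but neither named nor used for the forms of the consensus. The peak class, gene lists and settings were chosen with earlier results of these data known. Motif search, overlap and intervals were tested on simulated data. Calculations ran in Python 3.11.15 (scipy 1.17.1, pandas 2.3.3, numpy 2.4.6, matplotlib 3.10.9).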

Additional observations from a re-analysis of the deposited data

How the results depend on the processing

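No paired analysis was possible because the replicates of a condition were pooled into 1 list, which also left no replicate to leave out. Of 119 values under alternative settings, 57 stayed within the 95% interval of the value reported (for numbers, within 1.5 times), 61 moved and 1 changed sign although its interval excluded 0, the shift of rank of G4 pairs (−2.70 by fold, 3.04 by p-value). By p-value the shift was 0.80 points in intergenic G4-free, 1.32 in intronic and 2.09 in desert pairs. The shifts of the lowest (7.50 and −8.00) and highest GC bin (−1.96 and 5.78), not among the 119, also had the opposite sign by p-value. The PDS differences in shared share from intronic (−0.67) and desert peaks (−0.92), whose intervals include 0, turned positive with partners in the stronger 50% and with the 1 kb gap, and that from desert peaks (0.22) also for stronger peaks with partners of any p-value. The 17 values without the 2 densest windows of 1 Mb, did not move. That setting, the ranks by p-value of pairs, ranks among pairs alone and partners of any p-value were added after the data were seen. The cause of each move was not tested.

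The stronger 50% of each list by p-value held 4673 intergenic G4-free peaks in control and 4355 in PDS. Of these, 94.9% and 99.3% overlapped any peak of the other list, with differences in control of −4.41 from G4, 3.48 from intronic and 2.41 from desert peaks and in PDS of −0.59 from G4 peaks. With partners restricted to the stronger 50%, 79.9% and 83.7% were shared, 18.2% and 14.5% held the consensus, and rho was 0.37. The shared share then differed by 4.42 (control) and 3.30 (PDS) points from intronic, by 5.44 and 11.6 from desert and in PDS by −8.33 from G4 peaks. The shared share was 77.1% at 5 to 100 kb (control), 75.9% and 72.7% with G4 loops up to 12 nt, 75.8% with no motif within 1 kb (control) and 76.0% after peaks within 200 bp were merged (PDS).

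With an overlap of at least 50% of both peaks the shared share was 63.7% and 60.6%, with differences of −22.4 and −22.0 from G4 peaks and 6.65 from desert peaks (control). With centres at most 100 bp apart it was 57.6% and 55.1%, with differences of −12.5 and −11.2 from G4, 2.86 and −2.52 from intronic and 2.47 and −5.88 from desert peaks. With a gap of at most 1 kb it was 84.3% and 91.4%, with differences of −12.2 and −5.47 from G4 peaks and, in PDS, 1.47 from intronic and 5.22 from desert peaks, and the consensus share of shared minus one-list peaks was 3.29 and 4.79 points.

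The consensus share was 18.9% and 14.7% in whole peaks, 8.07% and 4.87% in 100 bp, 44.8% and 33.3% with at most 1 mismatch and 0.0423% and 0.0511% for the core motif. Shared peaks exceeded one-list peaks by 9.89 and 18.2 points in whole peaks and by 12.2 and 27.2 points with 1 mismatch. The correlation was 0.46 by Pearson on log2 folds, and the median percentile of PDS peaks was 44.9 by p-value against 51.8 by fold.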

Other observations

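Neighbouring intergenic G4-free peaks with the consensus, taken along each chromosome whatever lay between them, pointed in the same direction in 52.1% (49.4 to 54.7%) of 1364 control and 52.5% (49.3 to 55.6%) of 951 PDS pairs. They faced each other in 23.8% of pairs in both lists and faced apart in 24.1% (control) and 23.8% (PDS).

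Chromosomes differed in the density of these peaks and in how often they were shared. Chromosome 19 held 6.39 control and 7.53 PDS peaks per Mb and chromosome 22 held 6.04 and 6.92 (3.45 and 3.71 without the 2 densest windows of 1 Mb, which lie on it), whereas chromosome 4 held 1.56 and 1.32 and chromosome X 1.67 and 1.58. As a share of all peaks of the chromosome, they made up 22.3% and 24.0% on chromosome 19, 31.2% and 33.6% on chromosome 22, 30.1% and 30.5% on chromosome 4 and 34.3% and 35.2% on chromosome X, so that the densities did not follow these shares. In the control list the shared share was highest on chromosomes 17 (88.2%, 84.9 to 90.9%) and 19 (88.1%, 84.4 to 91.0%) and lowest on chromosome 4 (64.2%, 58.6 to 69.4%). In the PDS list it was 78.0% and 73.0% on chromosomes 17 and 19 and 74.2% on chromosome 4, with the lowest values on chromosomes 22 (62.5%, 57.4 to 67.4%) and 1 (68.7%, 66.1 to 71.1%). Without the 2 densest windows chromosome 22 was at 76.0% (69.3 to 81.6%) in PDS and 84.7% (78.5 to 89.3%) in control, against 75.2% in control with them, and was not the lowest in PDS. Chromosome 1 also held the largest difference in number, with 1156 control and 1309 PDS peaks. The shared shares of chromosomes were not set beside those of all their peaks. Nothing particular to intergenic G4-free peaks is therefore read from the order of chromosomes.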
